A study of Mus musculus with 4 samples.

Results

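A set of 9 genes of the megakaryocyte and platelet lineage were followed in fetal livers of mice whose dams ate a high-fat diet (HFD) or a control diet (CD) during gestation. The genes were chosen by name from knowledge of the lineage: Pf4, Ppbp, Itga2b, Itgb3, Gp1ba, Gp6, Gp9, Vwf and Treml1. All 9 had a probe, and they held 12 of the 56605 non-control probes, out of 22911 gene symbols that could be named on the array. The comparison asks whether the diet of the dam changed these transcripts in the fetal liver. The dams were C57BL/6J mice, the livers were taken from fetuses at E14.5, and the diets held 4.3% (CD) and 60% (HFD) of energy as fat. Each group had 2 single-colour Agilent arrays, on which labeled RNA from 1 sample binds to printed probes, so that brighter spots mark more transcript. The labels mark every sample as female, without saying whether the dam or the fetus is meant. Neither the number of fetuses nor that of dams behind an array is given, so the p-values measure only the spread between these samples, which may be technical.

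Megakaryocytes are the large polyploid cells that shed platelets into the blood. In mouse embryos of this age the liver is the main blood-forming organ, where megakaryocytes arise beside far more numerous erythroid cells, myeloid cells and hepatoblasts. They load granules with chemokines and adhesive proteins and carry receptors for von Willebrand factor, collagen and fibrinogen, which let platelets stick to a damaged vessel and to each other. Thrombopoietin drives their growth, and GATA, ETS and RUNX family transcription factors bind many of their genes. In RNA of a whole liver, fewer cells of a type and less RNA per cell cannot be told apart.

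Promoters of this lineage are known for short GATA and ETS motifs lying close together, so the bases upstream of each RefSeq start site were searched for them. RefSeq sequence of build GRCm38.p6 was at hand for 7 of the 9 genes, all but Itgb3 and Vwf. The GATA letters searched were AGATAA or AGATAG as well as TGATAA or TGATAG, the ETS letters were AGGAAG or CGGAAG, both strands were read, and no motif contains another. The ETS letters were found within 250 bases of the start in 4 of the 7 promoters (Pf4, Itga2b, Gp1ba and Gp9), against 39.2% of 32851 mouse promoters. The GATA letters were found in 2 of the 7 (Gp1ba and Gp6), against 26.5%, and both kinds in Gp1ba, against 9.21% of all promoters. The 4 promoters with an ETS match are printed to show where the letters stand in a granule chemokine, in the alpha chain of the fibrinogen receptor and in 2 chains of the von Willebrand factor receptor. Each is written 5′ to 3′ on the strand of the gene, ends at the last base before the start, and has the matched letters in capitals.
Pf4, chr5:90772185-90772434, plus strand: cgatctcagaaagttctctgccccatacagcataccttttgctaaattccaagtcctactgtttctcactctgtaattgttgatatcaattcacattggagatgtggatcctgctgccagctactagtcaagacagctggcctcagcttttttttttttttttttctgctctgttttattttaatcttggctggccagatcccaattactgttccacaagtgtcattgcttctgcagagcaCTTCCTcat
Itga2b, chr11:102469884-102470133, minus strand: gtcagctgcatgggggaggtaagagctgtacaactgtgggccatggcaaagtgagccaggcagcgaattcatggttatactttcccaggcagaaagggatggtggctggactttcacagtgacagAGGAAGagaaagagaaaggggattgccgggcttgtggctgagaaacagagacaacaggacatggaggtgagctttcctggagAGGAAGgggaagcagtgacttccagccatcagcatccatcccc
Gp1ba, chr11:70638872-70639121, plus strand: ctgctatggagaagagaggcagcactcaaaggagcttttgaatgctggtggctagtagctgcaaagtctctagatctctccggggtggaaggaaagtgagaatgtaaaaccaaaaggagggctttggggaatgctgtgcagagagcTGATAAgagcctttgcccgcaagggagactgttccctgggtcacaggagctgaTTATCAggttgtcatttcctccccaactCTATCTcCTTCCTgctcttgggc
Gp9, chr6:87777820-87778069, plus strand: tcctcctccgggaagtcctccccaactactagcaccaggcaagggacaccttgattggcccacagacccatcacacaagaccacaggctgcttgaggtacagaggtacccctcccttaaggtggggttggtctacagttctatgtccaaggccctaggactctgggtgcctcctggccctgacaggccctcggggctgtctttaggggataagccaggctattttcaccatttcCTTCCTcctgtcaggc
Gp1ba and Gp9, whose proteins sit in 1 receptor complex, both held the ETS letters on the minus strand at bases 16 to 11 upstream of the start. Gp1ba also held GATA letters at bases 104 to 99, 51 to 46 and 23 to 18. In Itga2b the ETS letters stood on the plus strand at bases 125 to 120 and 43 to 38. The Gp9 window precedes an alternative start that lies inside the annotated gene. These matches describe the letters of the window and do not show that a factor binds there.

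A single slide, scanned once, carried all 4 arrays. Between 65.4% and 70.0% of their non-control spots were well above background, and no spot was saturated. The CD replicate 2 array was the dimmest, with a median intensity of 70.2, against 97.0 to 120.5 on the others. For each diet, values are listed for replicate 1 and then for replicate 2. Levels are given as log2 intensity minus the 75th percentile of the same array, so that a level of 0 is that percentile and a difference of 1 is 2-fold. Agreement was poorest within the CD group: the SD of the difference over 41332 tested probes was 0.58 between the CD arrays, 0.34 between the HFD arrays and 0.42 to 0.50 between a CD and an HFD array. Each of the 12 probes was well above background on every array and passed the filters on dim and variable probes. Equally well detected were the probes of all 11 hepatoblast and all 9 matched erythroid markers, which define a fetal liver of this age.

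The granule chemokines were higher on average in the HFD group, by an amount within the spread of the CD arrays. Pf4 (platelet factor 4) is packed into alpha granules and is a widely used marker of the lineage. Its level was 5.58 and 6.46 under CD and 6.25 and 6.16 under HFD. Both HFD arrays lay between the CD arrays. The difference, HFD minus CD, was 0.18 on the log2 scale or 1.14-fold (SE 0.33, 95% confidence interval -0.70 to 1.07). Ppbp, its neighbour on chromosome 5, encodes the precursor of several granule chemokines. Its level was 3.73 and 4.70 under CD and 4.45 on both HFD arrays. The pattern was that of Pf4, with the HFD arrays inside the gap of the CD arrays. The difference was 0.23 (SE 0.36, interval -0.72 to 1.19).

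The fibrinogen receptor of platelets is a pair of an alpha chain, Itga2b (CD41), and a beta chain, Itgb3, and the chains gave different orders of the arrays. Itga2b, which is also an early marker of blood-forming cells, had levels of -0.52 and 0.51 under CD and -0.18 and -0.03 under HFD. It was the only one of the 9 genes with a lower mean in the HFD group, by a difference of -0.10 (SE 0.38, interval -1.11 to 0.90). Itgb3, which also pairs with another alpha chain on endothelial cells and macrophages, had levels of 3.22 and 3.61 under CD and 3.76 and 3.81 under HFD. Here both HFD arrays lay above both CD arrays. The difference was 0.37 (SE 0.21, interval -0.18 to 0.92). A second, dimmer probe of Itgb3 read -2.06 and -1.56 under CD and -1.32 and -1.80 under HFD. With that probe the groups overlapped, and the difference was 0.25 (SE 0.28, interval -0.49 to 0.99).

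Gp1ba and Gp9 belong to the receptor complex that catches von Willebrand factor: Gp1ba encodes the chain that binds it, and Gp9 a small chain needed to bring the complex to the surface. The level of Gp1ba was 0.69 and 1.51 under CD and 1.31 and 1.34 under HFD. The level of Gp9 was 2.34 and 3.10 under CD and 2.89 and 3.05 under HFD. In both genes CD replicate 1 was lowest, CD replicate 2 was highest and the HFD arrays lay between them. The difference between the diets was 0.22 for Gp1ba (SE 0.32, interval -0.61 to 1.06). It was 0.24 for Gp9 (SE 0.30, interval -0.56 to 1.04). Among the other chains of the complex, named here after their values were seen, Gp5 had the order of Gp1ba and Gp9 with a wider CD gap, reading -0.98 and 0.31 under CD and -0.39 and -0.36 under HFD. Gp1bb read -1.70 and -1.03 under CD and -1.24 and -1.14 under HFD, again with CD replicate 2 highest.

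The collagen receptor Gp6 signals through an Fc receptor chain, Fcer1g. With its brighter probe, the level of Gp6 was -1.07 and -0.35 under CD and -0.28 and -0.23 under HFD. The HFD arrays lay just above CD replicate 2, so the groups did not overlap. The difference was 0.45 or 1.37-fold, the largest of the 9 genes (SE 0.29, interval -0.31 to 1.21). Its dimmer probe gave another order, with -2.60 and -1.29 under CD and -1.71 and -1.66 under HFD. The CD arrays differed 2.49-fold with that probe, and the difference between the diets was 0.26 (SE 0.46, interval -0.97 to 1.50). Fcer1g, which mast cells and macrophages also make, had levels of 2.86 and 3.58 under CD and 3.09 and 3.12 under HFD. It differed by -0.11 between the diets (SE 0.29), with the HFD arrays inside the CD gap.

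Vwf encodes von Willebrand factor, the adhesive protein that platelets bind, and is made by endothelial cells as well as megakaryocytes. Its level was 2.37 and 2.53 under CD and 2.51 and 2.71 under HFD, the narrowest range of the 9 genes. The difference was 0.16 (SE 0.18, interval -0.31 to 0.63). Treml1 encodes a receptor of the granule membrane that reaches the surface when platelets are activated. With its brighter probe its level was 3.08 and 3.61 under CD and 3.77 and 3.79 under HFD, without overlap, for a difference of 0.43 or 1.35-fold (SE 0.24, interval -0.20 to 1.06). With its dimmer probe the level was 0.19 and 1.19 under CD and 0.73 and 0.82 under HFD. That probe put the HFD arrays inside the CD gap, with a difference of 0.08 (SE 0.37, interval -0.89 to 1.06). So for Itgb3, Gp6 and Treml1, the 3 genes with 2 probes each, the groups were separate with the brighter probe and overlapped with the dimmer one.

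**Figure D1:**
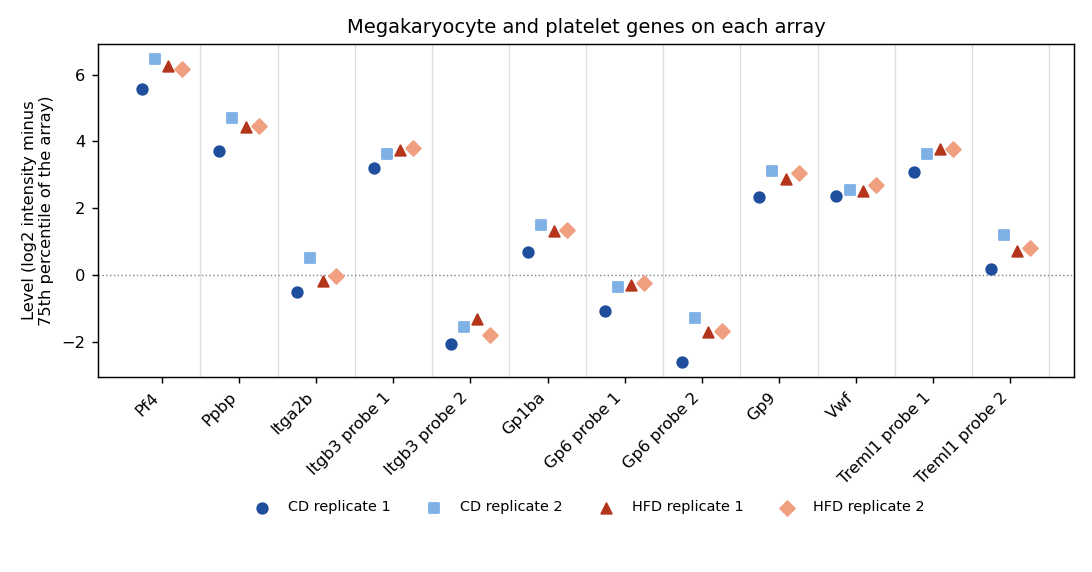
Level of each of the 12 probes (log2 intensity minus the 75th percentile of the array, vertical axis) on the 4 arrays, with 1 marker for each array. CD replicate 1 is the lowest of the 4 markers for all 12 probes, and the HFD arrays lie close together for every probe but the dimmer one of Itgb3.

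No difference between the diets passed a test for any of the 9 genes. The limma adjusted p was 1.00 for all 12 probes, and 0 of the 12 had an adjusted p under 0.05, where the share of all tested probes was 0%. At an unadjusted p under 0.05 there were 0 of 12 probes, against 3.34% of all tested probes. With a 2-fold change added, the fold drawn as lines in the study, there were again 0 of 12, against 0.769%. The unadjusted p ranged from 0.134 for Treml1 to 0.830 for its dimmer probe. In simulated data of this design the adjusted test recovered no change of any size tried, so the adjusted p does not show that the levels were equal. With 2 arrays a group, the smallest two-sided p that an exact permutation test allows is 0.333. The intervals show what remains possible. The upper bounds allow a rise of up to 2.10-fold for Pf4 and 1.55-fold for Vwf. For Gp6 they allow 2.32-fold with the brighter probe and 2.82-fold with the dimmer one. The lower bound for Itga2b allows 0.462 of the CD level. The HFD mean was above the CD mean in 8 of the 9 genes, beside 57.6% of all 18192 genes tested, and the median difference was 0.23, beside 0.04 over all genes. Both HFD arrays were above both CD arrays for 3 of the 12 probes, which are the brighter probes of Itgb3, Gp6 and Treml1, while the share over all tested probes was 19.5%.

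These differences rested on which CD array stood for the controls. Without CD replicate 1, the HFD group was higher in 4 of the 9 genes (Itgb3, Gp6, Vwf and Treml1) and the median difference was -0.14. Without CD replicate 2, it was higher in 9 of the 9 and the median was 0.63. Pf4 differed by -0.26 in the first case and by 0.63 in the second, and Ppbp by -0.25 and 0.72. Itga2b ran from -0.62 to 0.41, while Vwf stayed between 0.08 and 0.24. At an unadjusted limma p under 0.05 there were 3 of 12 probes without CD replicate 1 (Itga2b and the dimmer probes of Gp6 and Treml1, all lower in the HFD group), where the share of all tested probes was 19.7%. Without CD replicate 2 there were 9 of 12, all higher in the HFD group, where the share was 13.6%. The smallest adjusted p of limma was 0.244 in the first case and 0.360 in the second. Both fits take the spread from the HFD arrays alone and assume that the lone CD array varies like them. Leaving out an HFD array kept 8 of the 9 genes higher, with medians of 0.25 and 0.23.

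**Figure D2:**
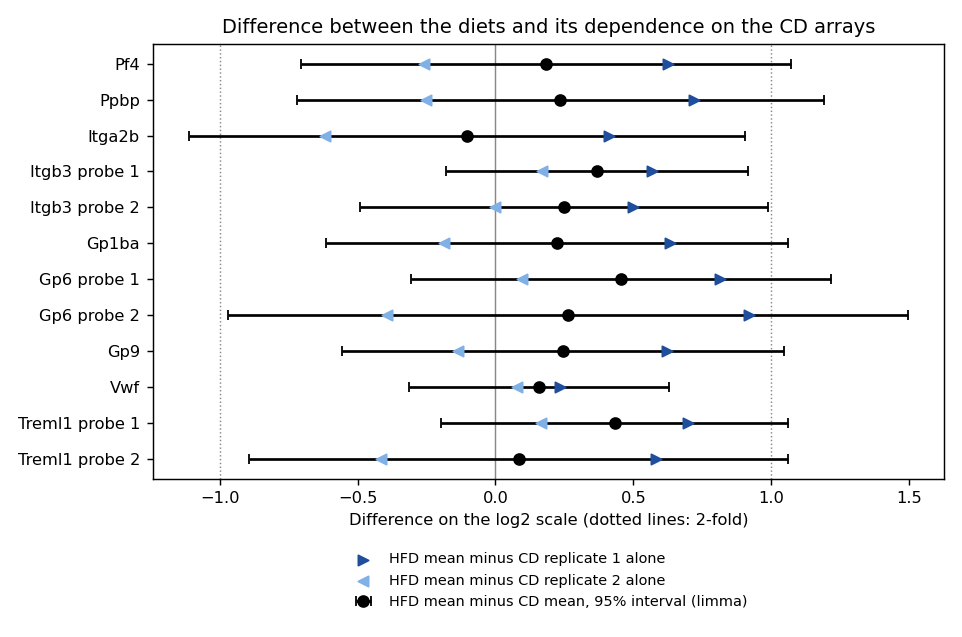
Difference between the HFD mean and the CD mean (log2 scale, horizontal axis) for each probe, as a black point with its 95% interval from limma, and the HFD mean minus each CD array alone as triangles. Every interval spans 0, and the triangle for CD replicate 1 lies to the right of that for CD replicate 2 for all 12 probes.

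What the 9 genes shared was the array with their lowest level. All 12 probes had their lowest level on CD replicate 1, where 37.3% of all tested probes did. The highest array differed among them: CD replicate 2 gave the highest level for 7 of the 12 probes, against 33.5%. The gap between the CD arrays was larger than that between the HFD arrays for 11 of the 12, against 75.6%, and the exception was Vwf, with gaps of 0.16 and 0.19. Counted by gene, all 9 were lowest on CD replicate 1, beside 42.7% of the genes tested.

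The size of the CD gap differed among the genes. It was widest for Itga2b, 1.03 or 2.04-fold, followed by Ppbp with 0.97, Pf4 with 0.88, Gp1ba with 0.82, Gp9 with 0.76 and Gp6 with 0.72. These 6 genes stood between percentiles 95 and 98.5 of the CD gap over all genes tested. Treml1 followed with 0.53, Itgb3 with 0.40 and Vwf with 0.16, which is 1.12-fold and stood at percentile 59.1. Vwf, which endothelial cells also make, differed least of the 9 between the CD arrays, and the part of those cells in this was not tested. The median gap of the 9 genes was 0.76, or 0.79 without Vwf, beside 0.06 over all genes. Between the HFD arrays the median gap of the 9 genes was 0.05.

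Over the array as a whole, the direction of the CD gap changed with brightness. Over 10 equal groups of genes ordered by mean level, its medians ran from -0.12 to 0.23. They were negative in the dimmer groups and positive in the brighter ones. Each of the 12 probes had a gap above the median of its own brightness group, which was taken under the main scaling only. The counts of lowest and highest arrays held under each of the 5 scalings tried, the main one included. All 12 probes were lowest on CD replicate 1 and 7 of 12 highest on CD replicate 2, while the median gap of the 9 genes ran from 0.65 to 0.76. The share of all tested probes that were lowest on CD replicate 1 ran from 28.0% to 50.5% over the same scalings. Before any scaling, 8 of the 12 probes were lowest on CD replicate 1, where 4.43% of all tested probes were. The other 4, both probes of Itgb3, Vwf and the brighter probe of Treml1, were then lowest on CD replicate 2, the dimmest array, as were 79.1% of all probes.

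**Figure D3:**
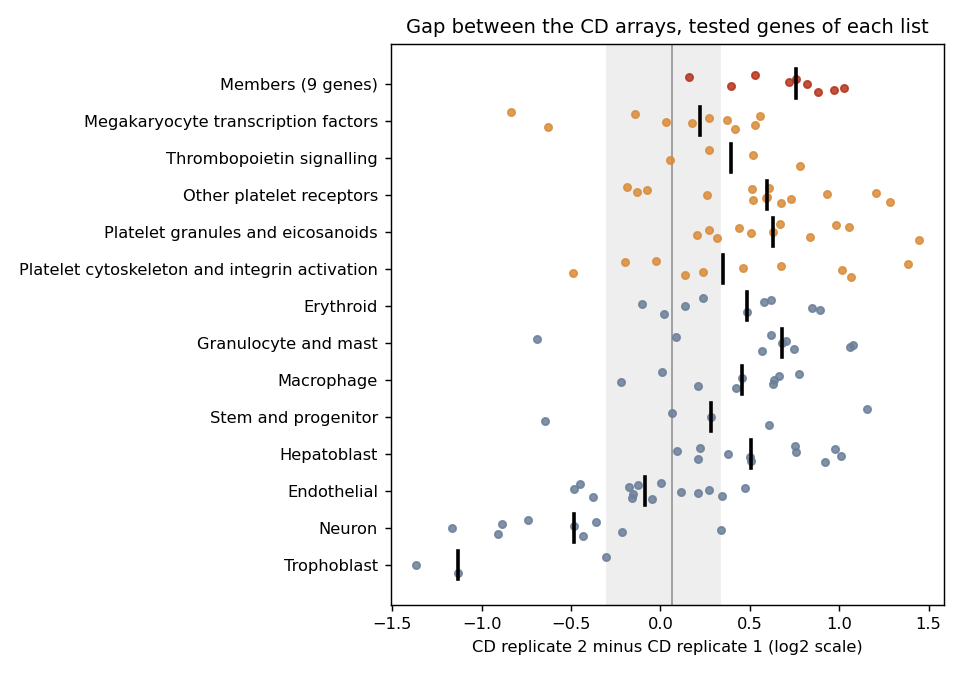
Level on CD replicate 2 minus level on CD replicate 1 (log2 scale, horizontal axis) for each tested gene of each list, with the list's median as a black bar, the median of all genes tested as a grey line and their middle 50% as a grey band. The 9 genes, in red, all lie to the right of 0, as do all 11 hepatoblast genes, while most neuron genes lie to the left. The trophoblast row shows only the 3 tested genes of its 12, and the genes left out of the test had gaps to the right of 0.

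The other genes of the lineage were taken from a list of 49, all of which were well above background on every array and tested. Of these, 30 were higher and 19 lower in the HFD group, beside 57.6% of all genes higher, with a median difference of 0.05 and a range of -0.26 to 0.40. At an unadjusted limma p under 0.05 there were 0 of 49, beside 2.84% of all genes. That count became 12 of 49 without CD replicate 1, beside 16.3%, and 19 of 49 without CD replicate 2, beside 13.7%. The median CD gap was 0.51, and 37 of the 49 were lowest on CD replicate 1, beside 42.7% of all genes. Both HFD arrays were above both CD arrays for 8 of the 49, beside 23.1% of all genes.

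By role, the widest CD gaps were in genes of granules and eicosanoid synthesis, with a median of 0.63, and in other platelet receptors, with 0.59. All 11 granule and eicosanoid genes were higher on CD replicate 2, and 10 of the 11 were lowest on CD replicate 1. Thbs1, the granule adhesive protein thrombospondin, had levels of 2.74 and 3.06 under CD and 3.22 and 3.19 under HFD. Srgn, the proteoglycan core that holds granule contents together, read 2.55 and 3.18 under CD and 3.03 and 2.88 under HFD. Thbs1 was therefore separate between the groups and Srgn was not, and their differences were 0.31 (SE 0.19) and 0.09 (SE 0.27). The widest gap of the 49, named after its values were seen, was that of Selp, the adhesion receptor P-selectin of granules and endothelial cells, at 1.45. Among the receptors, Cd9, a membrane protein of platelets and many other cells, had a CD gap of 0.51 and a difference between the diets of 0.01 (SE 0.23).

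Genes of the cytoskeleton and of integrin activation had a median CD gap of 0.35 and did not all follow that order. Tln1, which couples integrins to actin and is found in most cells, read 5.61 and 5.84 under CD and 5.79 and 5.83 under HFD. Flna, an actin crosslinker of most cells that also anchors the von Willebrand factor receptor, went the other way, with 5.74 and 5.25 under CD and 5.42 and 5.45 under HFD. Tubb1, the tubulin of the platelet rim, was named after its values were seen. It had a CD gap of 1.07, with the HFD arrays inside it.

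The transcription factors had the smallest median gap of the role groups, 0.22. Gata1, which drives both the megakaryocyte and the erythroid program, read 5.51 and 5.92 under CD and 5.87 and 5.85 under HFD. Its partner Zfpm1 (FOG1) read 5.63 and 6.16 under CD and 5.92 and 5.84 under HFD. Both were lowest on CD replicate 1 and highest on CD replicate 2. Gata2, Etv6 and Meis1, named after their values were seen, had gaps of -0.63, -0.14 and -0.83 and were highest on CD replicate 1. The 10 factors differed by a median of 0.10 between the diets.

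In thrombopoietin signalling the median CD gap was 0.40 and the median difference between the diets was -0.08. The kinase Jak2, which passes on signals of several blood cell hormones, read 1.04 and 1.56 under CD and 1.31 on both HFD arrays. Its inhibitor Sh2b3 read 1.49 and 1.77 under CD and 1.63 and 1.66 under HFD. In both, the HFD arrays lay in the middle of the CD gap, and the differences were 0.01 each (SE 0.23 and 0.18). Thpo, the hormone itself, which hepatocytes make, had a CD gap of 0.78 and was named after its values were seen.

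Markers of some other cell types shared the direction of the CD gap of the 9 genes, while those of others did not. All 11 hepatoblast genes were lowest on CD replicate 1, with a median gap of 0.51, and Alb (albumin) read 8.14 and 9.06 under CD and 8.53 and 8.54 under HFD. The summed linear level of the hepatoblast list, in units of the 75th percentile, was 1846 and 2826 under CD and 2228 and 2245 under HFD. For the 9 genes the same sum was 91.9 and 158 under CD and 142 and 140 under HFD, with 53.2% of it from Pf4. So the sums of both lists were lowest on CD replicate 1 and highest on CD replicate 2.

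Among blood cells, 8 of 9 erythroid genes with a matched probe were lowest on CD replicate 1, with a median gap of 0.49 and sums of 364 and 429 (CD) and 446 and 479 (HFD). Alas2, the first enzyme of heme synthesis in red cells, had a gap of only 0.02. Of the granulocyte and mast cell genes 6 of 9 were lowest on CD replicate 1, with a median gap of 0.68, and Mpo (myeloperoxidase) had a gap of 0.57. The macrophage list had 8 of 9 tested genes lowest there, a median gap of 0.46 and a gap of 0.42 for Adgre1 (F4/80). Stem and progenitor genes had 3 of 5, a median gap of 0.28 and a gap of 0.61 for Kit, the stem cell factor receptor. The low level on CD replicate 1 was thus shared with most genes of the hepatoblast, erythroid and myeloid lists, although the erythroid sum was highest on HFD replicate 2, and the part of these cells in the result was not tested.

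Other lists were mostly not lowest on CD replicate 1. Only 2 of 14 endothelial genes were lowest on CD replicate 1, the median gap was -0.09, and Pecam1 had a gap of -0.05. All 9 neuron genes were lower in the HFD group, beside 7712 of the 18192 genes tested, by a median difference of -0.63. Both HFD arrays were below both CD arrays for 6 of the 9, beside 1840 of the 18192. At an unadjusted limma p under 0.05 there were 3 of the 9, beside 2.84% of all genes, and 0 at an adjusted p under 0.05. The sums of the neuron list were 30.8 and 21.5 (CD) and 15.5 and 21.9 (HFD). The neuron-specific tubulin Tubb3 differed by -0.83 (SE 0.29, limma adjusted p = 1.00). Of 12 trophoblast genes, 9 were left out of the test by the filter on variable probes or on dim ones. Those 9 had both HFD arrays below both CD arrays, beside 1840 of the 18192 genes tested. Most of the 9 are among the genes that the study lists as lowered on these same arrays, so their order is not independent of that list. Tpbpa, a marker of the outer placenta, read 3.01 and 4.80 under CD and 1.00 and -1.01 under HFD. Of the other 3 trophoblast genes, Gcm1, which gave 65.4% of the list's summed level, differed by 0.55, Plac1 by 0.06 and Ascl2 by -0.24, and their groups overlapped. The summed level of the trophoblast list was 67.9 and 80.4 (CD) and 47.9 and 50.3 (HFD). Its median CD gap was 1.81 over all 12 genes, with 9 of the 12 higher on CD replicate 2, the direction of the 9 megakaryocyte genes. Over the 3 tested trophoblast genes alone the median gap was -1.14. The part of such tissue in the differences was not tested.

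**Figure D4:**
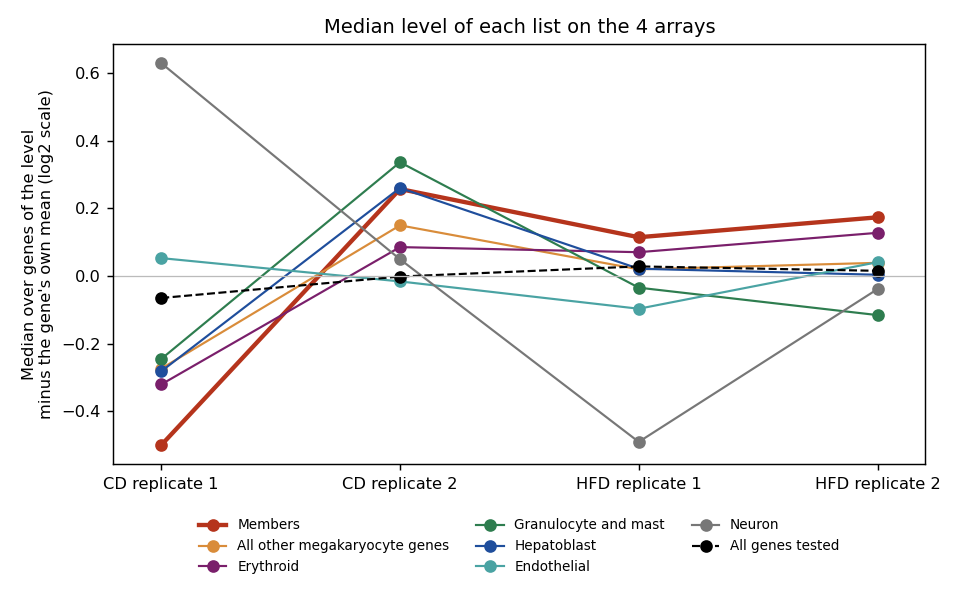
Median over the tested genes of each list of the level minus the gene's own mean over the arrays (log2 scale, vertical axis) on the 4 arrays, with 1 coloured line for each list and a dashed line for all genes tested. The 9 genes, in red, run from -0.50 on CD replicate 1 to 0.26 on CD replicate 2 and lie at 0.11 and 0.17 on the HFD arrays.

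The genes most like the 9 were sought among 16510 other genes that were well above background on all arrays. Likeness was the root mean square difference, over the 4 arrays, between a gene's levels minus their own mean and the median of the 9 genes taken the same way. That median ran from -0.50 and 0.26 under CD to 0.11 and 0.17 on the HFD arrays. The 5 nearest genes were Rprl3, a small noncoding RNA gene, with a difference of 0.0205, Zmynd10 with 0.0224, Arr3 with 0.0246, Treml2 with 0.0248 and C8b with 0.0282. Treml2 lies in the same gene cluster as Treml1, and read 2.70 and 3.46 under CD and 3.28 and 3.33 under HFD. C8b encodes a chain of the complement attack complex, which hepatocytes make. With 4 arrays many genes share such an order, and the other megakaryocyte genes had a median rank of 2453 in this list.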

How the data were processed

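The authors hybridised Cy3-labeled cRNA of fetal liver to a mouse array, with 2 arrays for each diet, read it with Agilent Feature Extraction 11.0.1.1 (per the labels), and deposited spot intensities after background subtraction, with no scaling between arrays. The deposited flags (outlier, saturated, well above background) are scores of 0 or 1. The authors' table of normalized signal held the intensity of 41471 probes divided by 1 constant for each array.

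From the intensities, log2 values were taken, spots without an outlier flag were averaged for each probe, and the 75th percentile of the array was subtracted. After the study's methods, a probe was left out when any array had it under the 20th percentile, when it was flagged on all spots of an array, or when its coefficient of variation exceeded 50% in both groups, which kept 41332 of 56605 probes. Of the usable probes, 14980 fell to the percentile and 284 to the variation. It was taken here on the linear scale, whereas the methods name a log scale, which was an alternative and kept 41614 probes. HFD minus CD was fitted with limma 3.58.1 (lmFit and eBayes, R 4.3.3, no covariates), and Benjamini-Hochberg adjustment ran over all tested probes. The cutoffs were an unadjusted p under 0.05, the level the study names for its tests in general, and the 2-fold change it draws as lines, since its text gives no rule for the arrays. The steps were tested on simulated data, where the effect sizes were recovered and the adjusted test made no call.

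Probes were named by matching transcripts to RefSeq genes of GRCm38.p6, which named 32994 probes. Array coordinates are left out because the design names a different build. A gene stands for its brightest probe. The genes named in the text were the 9 members, in each role group of other megakaryocyte genes the 2 with the highest mean level and any past the cutoffs (there were 0), the first gene of each marker list, and the 5 genes of the most similar pattern, with exceptions said where they stand. A further gene of the lineage is not reported here. The 9 genes, the lists and the rules were chosen with earlier results of these data known. The 16 alternatives were quantile normalization, another reference for the 75th percentile, normexp background correction (offset 50, on median brightness, as the mean was not used here), the deposited table, other filters, a replicate block, the methods' t-test, the same test after Welch's correction, a gene's mean over its probes, and each array left out in turn. The order of the unscaled intensities was added after seeing the data. The number of arrays limits the precision.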

Additional observations from a re-analysis of the deposited data

How the results depend on the processing

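The calls at the cutoffs did not change: 0 of 12 probes of the 9 genes and 0 of the 49 other megakaryocyte genes passed the cutoffs under any of the 15 alternatives that gave a test. The median difference of the 9 genes stayed between 0.19 and 0.25 under the alternatives that kept all 4 arrays, and ran from -0.14 to 0.63 when an array was left out. That of the other megakaryocyte genes ran from -0.003 to 0.05 with all 4 arrays kept, and from -0.16 to 0.33 when an array was left out. Of the 49, the number higher in the HFD group was 30 as reported but 22 with quantile normalization and 25 with the other reference for the 75th percentile. With 1 array left out, Pf4 ran from -0.26 to 0.63, Ppbp from -0.25 to 0.72, Gp1ba from -0.19 to 0.63, Gp9 from -0.14 to 0.62 and Itga2b from -0.62 to 0.41. The sign turned without CD replicate 1 for the first 4 of these genes and without CD replicate 2 for Itga2b, and the cause was not tested. With the brightest probe, or the mean over a gene's probes, the differences of Itgb3, Gp6, Vwf and Treml1 kept their direction under all 16 alternatives. The dimmer probes of Gp6 and Treml1 did not: without CD replicate 1 their differences turned to -0.39 and -0.41.

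With the replicate number as a replicate block, the paired fit gave a median difference of 0.23 for the 9 genes, 0 probes past the cutoffs and a smallest limma adjusted p of 1.00. Same-numbered samples' deviations from their group means correlated at -0.0997 over probes. With 2 arrays a group, this value cannot decide whether the replicate numbers mark pairs. The methods' t-test gave 0 of 12 probes under an unadjusted 0.05 and 0 after Benjamini-Hochberg adjustment. Over all probes, those past the cutoffs numbered 318 as reported, 48 with normexp, 97 with the methods' t-test and 46 with Welch's correction, 845 without the filter on dim probes, and 745 to 1268 with an array left out. Slide and scan could not be used as a block, with 1 of each. With 2 arrays a group, differences within the intervals given could not be told from 0.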
